A study of Arabidopsis thaliana with 18 samples.

Results

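In developing Arabidopsis thaliana seeds, 98 of 19755 measured probe sets showed a difference between the accessions C24 and Col-0 that changed sign between stages. A probe set was included when the mean of the C24 arrays minus the mean of the Col-0 arrays was 0.5 or more at one of 3 stages and -0.5 or less at another, on the log2 scale. These 98 probe sets are 0.496% of all those measured. A single gene is given by the array's annotation for 43 of them, and the other 55 are not listed in it. Sign-changing transcripts were thus chosen by their accession differences, which are given as a description with no test.

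Seeds of both accessions were taken 8-9, 10-11 and 12-13 days after flower opening, with 3 arrays for each accession and stage. Col-0 and C24 are natural inbred lines that were grown in the same long-day conditions, with no treatment and no transgene in either. Seeds of 48 siliques, 8 from each of 6 plants, went into the RNA of an array. There were 12 plants of an accession in all, spread over 2 experiments that both fed every pool. Pools and stages of an accession therefore shared plants, and every p-value measures the spread between such pools.

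Over these days an Arabidopsis seed passes from growth by cell division to filling with storage protein and oil, while the seed coat around it makes tannin precursors and mucilage and then ages. A seed is a mixture of embryo, endosperm and coat. Fewer cells of a type and less RNA per cell cannot be told apart in such samples.

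The arrays of a group correlated at 0.992 to 0.997 across probe sets. A principal component with 73.2% of the variance followed the stages. At 8-9 days the Col-0 arrays lay at -81.03 ± 2.44 on it and the C24 arrays at -71.71 ± 2.94 (mean ± SD, n = 3). At 10-11 days they lay at 7.10 ± 8.41 and 25.17 ± 2.76, and at 12-13 days at 60.58 ± 0.05 and 59.89 ± 2.16. C24 was thus further along this component at the earlier stages and level with Col-0 at the last. The part of this shift in the sign changes was not tested. A sign of RNA quality, the 3' minus 5' signal of 4 control pairs, moved between the accessions as well. All 4 were higher in C24 at 10-11 days and lower in C24 at 12-13 days, and 3 of the 4 were higher in C24 at 8-9 days. For one GAPDH pair the group means were 0.29, 0.76 and 1.21 in Col-0 against 0.54, 0.97 and 0.57 in C24, and for the other 0.15, 0.18 and 0.45 against 0.27, 0.32 and 0.18. For one actin pair they were 1.89, 1.44 and 1.34 against 2.02, 1.78 and 1.20, and for the other 1.87, 1.41 and 1.73 against 1.85, 1.58 and 1.42. These controls thus changed sign between the stages in the direction of the members first higher in C24, and their part was not tested either. The 5 storage protein genes measured of a list of 13 had a summed log2 level of 13.18 to 13.86 in Col-0 and 13.79 to 14.21 in C24 at 8-9 days. At 12-13 days it was 15.19 to 15.23 in Col-0 and 15.28 to 15.35 in C24. The 2 endosperm markers measured of a list of 10 had group means of at most 4.34, under 4.41, the lowest of the arrays' 25th percentiles.

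In 68 of the 98 members C24 was the higher accession at the first stage that passed the limit, and in 30 it was the lower one. The first class had median differences (C24 minus Col-0) of 0.63 at 8-9 days, -0.03 at 10-11 days and -0.65 at 12-13 days. The second had medians of -0.75, 0.53 and 0.61. The median near 0 in the first class came from members on either side of it. At 10-11 days 22 of the 68 were still 0.5 or more higher in C24, 23 were already 0.5 or more lower, and 23 lay between.

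**Figure D1:**
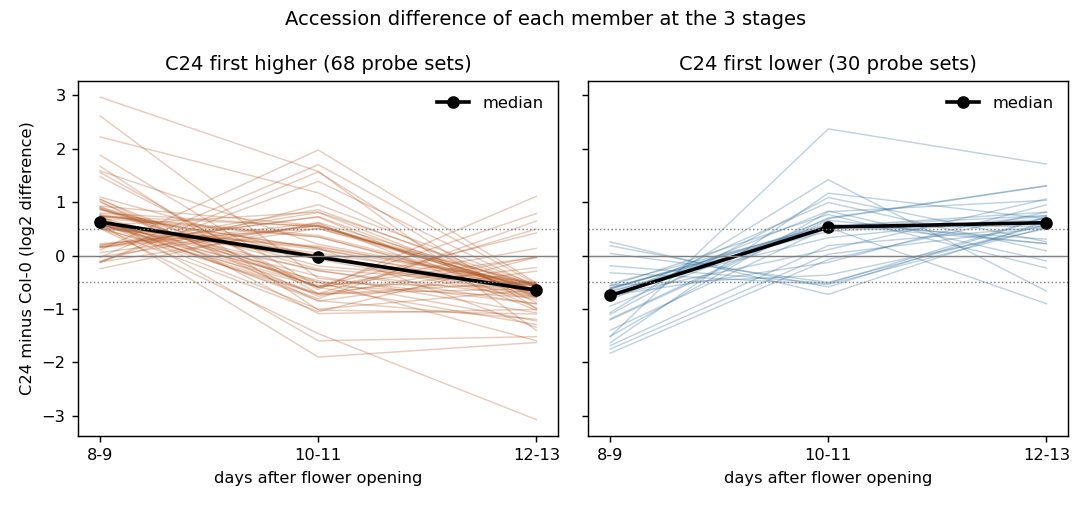
Each thin line is 1 member, with the stage in days after flower opening on the horizontal axis and the C24 minus Col-0 log2 difference on the vertical axis; the thick line is the class median and the dotted lines mark the limit of 0.5. The median of the 68 members on the left goes from 0.63 to -0.65, and that of the 30 members on the right from -0.75 to 0.61.

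The most frequent course, in 23 members, was higher in C24 at 8-9 days, within the limit at 10-11 days and lower at 12-13 days. Another 16 were within the limit at 8-9 days, higher in C24 at 10-11 days and lower at 12-13 days. In 25 members the difference passed the limit at every stage and changed sign once. A second change of sign beyond the limit was seen in 5, of which AT4G16400 alone has a gene name. Counting signs of any size, 20 members changed sign more than once. The swing of a member, its highest minus its lowest difference, had a median of 1.51 and ran from 1.02 to 4.36. Both differences were beyond 1 in 9 members. The arrays of the accessions did not overlap at both stages of the swing in 87 of 98 members, and arrays that lay apart in opposite directions at different stages were seen in 6.23% of all probe sets. The rule itself favours such separation.

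At the limit, the gene AT1G79470 was included with differences of 0.50, 0.15 and -0.52, and an unlisted probe set with 0.04, -0.50 and 0.58. Just outside lay AT5G25560, with 0.53, -0.4998 and 1.39, and an unlisted probe set, with 0.4994, -0.40 and -0.77. The members at the edge do not stand apart from their neighbours outside it.

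Of the 43 named members, 8 have a symbol beyond the locus number. They act in the cell wall (EXPA9, XTH16), in metabolism (CYP78A9, BGLU19, BAN, AMY1) and in signalling or protein turnover (CLE44, ATL8). AMY1 and CLE44 were outside the rule for named genes and were picked for their symbols after their values had been seen.

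EXPA9 encodes an expansin, a protein that loosens the cell wall. Its Col-0 arrays read 5.16, 5.10 and 5.12 at 8-9 days, 6.12, 5.74 and 6.38 at 10-11 days, and 7.29, 6.57 and 6.73 at 12-13 days. The C24 arrays read 5.65, 5.61 and 5.85, then 5.62, 5.58 and 5.63, and then 5.81, 5.46 and 5.65. Col-0 thus climbed from stage to stage while C24 stayed within its own spread, and the lines crossed between the first and the second stage. The C24 minus Col-0 difference was 0.58 ± 0.16 at 8-9 days, -0.47 at 10-11 days and -1.22 at 12-13 days (± SE of the model, n = 3 per group).

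XTH16, an enzyme that cuts and rejoins xyloglucan chains of the wall, was highest at the middle stage in Col-0. The Col-0 arrays read 5.09, 4.93 and 5.09 at 8-9 days, 6.81, 6.89 and 6.85 at 10-11 days, and 5.27, 4.89 and 5.53 at 12-13 days. In C24 they read 6.41, 6.30 and 5.56, then 5.94, 6.47 and 5.58, and then 5.34, 4.65 and 4.82. C24 began above all Col-0 arrays, lay below them at 10-11 days, and overlapped them at the end. The differences were 1.05 ± 0.23, -0.85 and -0.29.

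CYP78A9 encodes a cytochrome P450 whose overproduction enlarges fruits and seeds in Arabidopsis. Its arrays read 4.44, 4.65 and 4.33 in Col-0 against 5.02, 5.04 and 5.14 in C24 at 8-9 days. At 10-11 days they read 10.77, 10.26 and 11.08 in Col-0 against 8.58, 8.87 and 8.97 in C24. At 12-13 days they read 12.75, 12.64 and 12.66 in Col-0 against 11.07, 11.01 and 11.09 in C24. The transcript was slightly ahead in C24 at the lowest levels and then well behind, with no overlap of arrays at any stage. The Col-0 mean of 4.47 at 8-9 days lies near 4.41, at the dim end of the arrays, so the early difference and the size of the rise rest on a dim level. The differences were 0.59 ± 0.15, -1.90 and -1.63. As a mean of both accessions it rose by 4.99 ± 0.10 from 8-9 to 10-11 days and by 7.10 ± 0.10 over the whole span (limma adjusted p = 1.61e-17 and 8.06e-20), the highest rises among the named members.

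BGLU19, a beta-glucosidase, an enzyme class that frees glucose from sugar conjugates, had overlapping arrays at 8-9 days, with 4.40, 4.42 and 4.21 in Col-0 while C24 gave 4.19, 4.23 and 4.23. At 10-11 days C24 was ahead, with 6.79, 7.51 and 6.92 against 5.74, 4.86 and 5.92. At 12-13 days Col-0 was ahead, with 10.57, 10.79 and 10.60 against 9.80, 9.53 and 9.65. At 8-9 days all these levels lay near or below 4.41, at the dim end of the arrays. The differences were -0.13 ± 0.20, 1.56 and -0.99. Averaged over the accessions the transcript rose by 2.01 ± 0.14 in the first step and by 3.87 ± 0.14 in the second (limma adjusted p = 6.72e-10 and 4.4e-13).

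AMY1, an alpha-amylase, which splits starch, had a smaller swing. Its differences were 0.58 ± 0.12 at 8-9 days, -0.56 at 10-11 days and -0.79 at 12-13 days. From the first to the last stage the Col-0 mean moved by 0.60 and the C24 mean by -0.77, and the average of these was -0.09 ± 0.08 (limma adjusted p = 0.363).

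BAN encodes anthocyanidin reductase, which makes the flavan-3-ol units of the tannins of the inner seed coat. At 8-9 days its arrays read 11.62, 11.74 and 11.63 in Col-0 against 10.93, 10.69 and 11.12 in C24. At 10-11 days they overlapped, with 8.64, 8.86 and 8.35 against 8.61, 8.12 and 8.73. At 12-13 days C24 lay above, with 8.46, 8.08 and 8.27 against 7.54, 7.10 and 7.31. The level thus fell in both accessions, in Col-0 from a higher start to a lower end. The differences were -0.75 ± 0.16, -0.13 and 0.95. The mean of both accessions fell by 2.73 in the first step and by 0.76 in the second (SE 0.11 each, limma adjusted p = 3.38e-13 and 2.56e-05).

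BAN was the only member among the 3 measured genes of a list of 16 seed coat flavonoid genes. The other 2, DFR, a reductase of the same pathway, and CHIL, a chalcone isomerase-like protein, had a summed log2 level of 11.96 to 12.02 in Col-0 and 11.69 to 11.74 in C24 at 8-9 days. At 10-11 days it was 11.27 to 11.46 in Col-0 and 11.56 to 11.62 in C24, and at 12-13 days 10.66 to 10.88 and 10.89 to 11.14. The sum crossed, but neither gene did so by itself. DFR had group means of 10.87, 8.67 and 8.50 in Col-0 and lay lower in C24 at every stage, with 10.02, 8.39 and 8.37. CHIL had 11.11, 11.12 and 10.43 in Col-0 and lay higher in C24 at every stage, with 11.17, 11.42 and 10.81, although its arrays overlapped at 8-9 days. The part of seed coat RNA in the difference of BAN was not tested. The 3 measured genes of a list of 11 mucilage genes of the seed coat had a summed log2 level of 12.74 to 12.90 in Col-0 and 12.39 to 12.72 in C24 at 8-9 days. At 10-11 days the sum was 11.49 to 11.82 in Col-0 and lower in C24, at 11.20 to 11.37. At 12-13 days the ranges overlapped, at 10.85 to 11.09 and 10.72 to 10.94.

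ATL8 belongs to a family of RING-finger ubiquitin ligases, which mark proteins for breakdown. The Col-0 arrays read 7.68, 7.32 and 7.52 at 8-9 days, 9.59, 9.71 and 9.62 at 10-11 days, and 9.62, 9.54 and 9.61 at 12-13 days. The C24 arrays read 8.36, 8.72 and 8.10, then 9.16, 9.22 and 9.06, and then 7.97, 8.00 and 8.02. In Col-0 the level reached a plateau, while in C24 it peaked at the middle stage and went back below its start. The differences were 0.89 ± 0.12, -0.50 and -1.60. The mean of both accessions rose by 1.44 ± 0.08 in the first step and fell by 0.60 in the second (limma adjusted p = 3.43e-11 and 1.12e-05). CLE44, a signalling peptide of the CLAVATA3/ESR-related family, had differences of 0.53 ± 0.14, -0.03 and -0.57.

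The highest swing of all members was that of AT2G43535, for which the reference tables give a locus only. Its Col-0 arrays read 6.68, 6.62 and 6.20 at 8-9 days, 8.90, 8.42 and 9.24 at 10-11 days, and 10.53, 10.50 and 10.86 at 12-13 days. In C24 they read 9.39, 9.79 and 9.21, then 10.53, 10.26 and 10.49, and then 9.14, 9.27 and 9.27. The level in C24 was high from the start, and Col-0 passed it only at the last stage. Its differences of 2.96 ± 0.18, 1.57 and -1.40 are a 7.79-fold higher level in C24 at 8-9 days and a 2.64-fold lower one at 12-13 days.

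**Figure D2:**
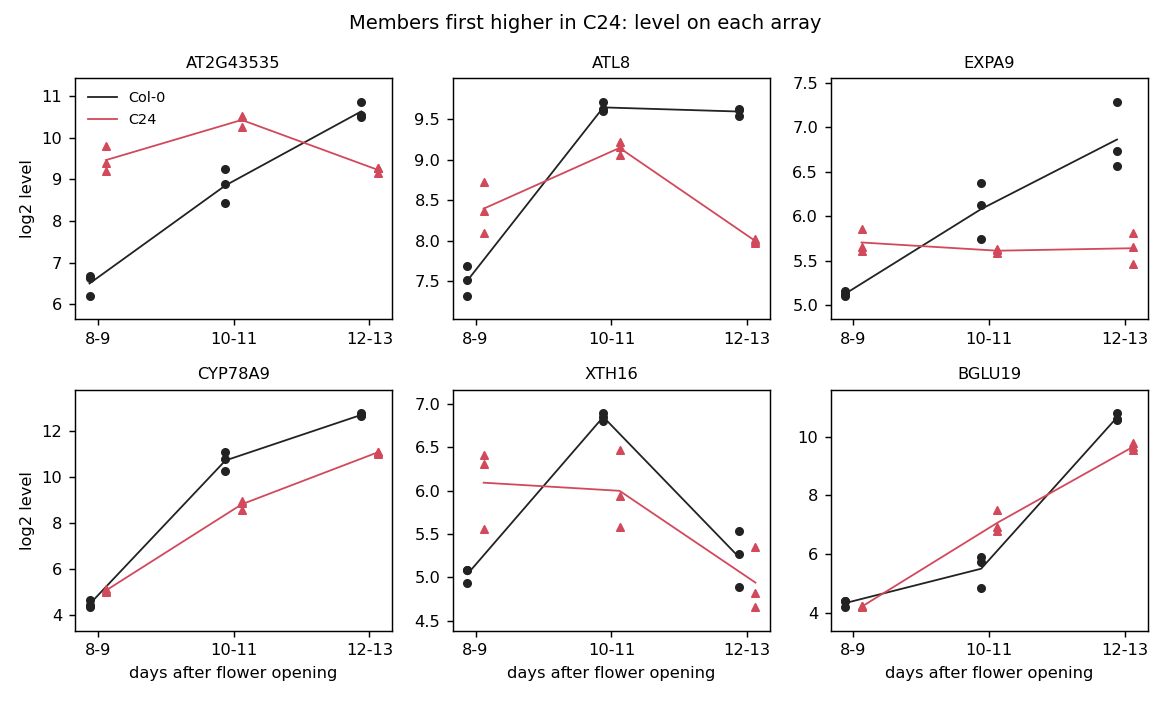
Log2 level on each array (points, circles for Col-0 and triangles for C24) and group means (lines) by days after flower opening for 6 members that were first higher in C24. The lines of the accessions cross in every panel, and the vertical axes differ between panels.

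Other genes of this class known by locus only crossed while both accessions climbed. Between the stages of its highest and lowest difference, AT4G09760 moved by 2.74 in Col-0 against 0.87 in C24. AT5G49350 moved by 2.71 against 0.74, and AT2G03200 by 2.20 against 0.70. For each of these Col-0 lay lower at the earlier of those stages and higher at the later one. AT3G27220 had changes of 1.66 and -0.60 and AT5G44730 of 0.24 and -1.32 between 8-9 and 10-11 days. AT1G47400 had differences of 0.76 ± 0.39, -1.59 and -1.52, and AT1G09310 of 0.56 ± 0.32, 0.05 and -0.55. Their arrays overlapped between the accessions at 1 or both stages of the swing. Averaged over the accessions both transcripts fell from 8-9 to 12-13 days, with -2.82 ± 0.28 for AT1G47400 and -3.32 ± 0.22 for AT1G09310 (limma adjusted p = 2.97e-08 and 1.4e-10).

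Among the members first lower in C24, AT3G43960 had the highest swing of a named gene. The Col-0 arrays read 8.49, 8.51 and 8.49 at 8-9 days, 6.60, 6.27 and 6.08 at 10-11 days, and 5.80, 6.19 and 5.67 at 12-13 days. The C24 arrays read 6.73, 6.89 and 6.98, then 7.48, 7.65 and 7.32, and then 6.48, 6.88 and 6.36. The level in Col-0 fell early, while C24 had its highest level in the middle. The differences were -1.63 ± 0.15, 1.17 and 0.69.

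AT2G19310 read 6.53, 6.53 and 6.63 in Col-0 at 8-9 days and 7.23, 7.14 and 7.17 at 10-11 days, and 7.07 ± 0.08 (mean ± SD, n = 3) at 12-13 days. In C24 it read 5.55, 5.13 and 5.45, then 7.69, 8.10 and 7.87, and then 8.27, 8.42 and 8.45. Most of its course lay in C24, which began lower and ended higher with no overlap at any stage. The differences were -1.19 ± 0.11, 0.70 and 1.31, and the mean of both accessions rose by 1.57 ± 0.08 in the first step (limma adjusted p = 2.62e-12).

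AT1G56100 had the steepest fall over the whole span among named members. Its Col-0 arrays read 12.30, 12.33 and 11.67 at 8-9 days and 6.38, 6.29 and 6.68 at 12-13 days. The C24 arrays read 11.06, 11.14 and 11.27 and then 8.08, 7.71 and 7.46. Col-0 held more transcript at the start and less at the end. Its differences were -0.95 ± 0.18, 0.69 and 1.30, and the mean of both accessions fell by 4.53 (SE 0.13, limma adjusted p = 4.56e-16).

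A large early gap that closed and slightly reversed was seen in AT3G52870 and AT2G01610. AT3G52870 had differences of -1.75 ± 0.11, 0.02 and 0.52, and AT2G01610 of -1.69 ± 0.12, 0.19 and 0.54. In each the late difference was close to the limit of 0.5. AT3G08920 (-0.62, 0.54 and 0.75) and AT5G42720 (-0.56, -0.37 and 0.50) had smaller swings. AT2G05580 (-0.82 ± 0.39, 0.83 and -0.10) and AT4G15120 (-0.57 ± 0.16, 0.77 and -0.23) differed in both directions within the first step only, and their arrays overlapped at 1 or both of those stages.

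**Figure D3:**
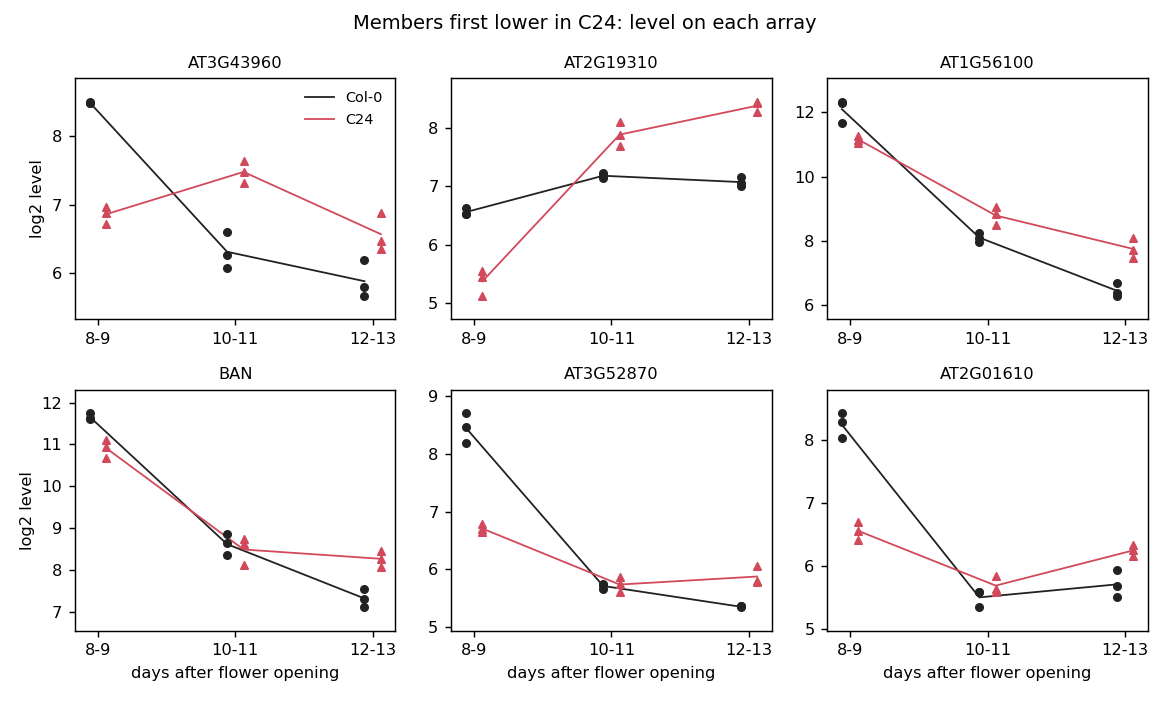
Log2 level on each array (points, circles for Col-0 and triangles for C24) and group means (lines) by days after flower opening for 6 members that were first lower in C24. Col-0 lies above C24 at 8-9 days in every panel and below it at 12-13 days, and the vertical axes differ between panels.

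Between the stages of its highest and lowest difference a member can move the same way in both accessions, at unequal size, or opposite ways. In 54 of the 98 the group means moved the same way, 39 up and 15 down, and in 44 they moved opposite ways, 30 of them up in Col-0 and down in C24. With the added demand that the arrays of both stages lay apart in each accession, 26 members moved opposite ways, where 2.9% of all probe sets did so between their own stages of highest and lowest difference. The rule favours this as well, so nothing is read from it.

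The size of these changes was unequal between the accessions. Its median was 1.64 in Col-0 and 0.83 in C24, and Col-0 had the larger change in 70 of 98 members (71.4%). Among the 657 other probe sets with a swing of 1 or more, Col-0 had the larger change in 373 (56.8%). The difference between these shares was not tested. The rule bounds the difference between the changes and not which of them is larger. Where the C24 minus Col-0 difference falls, Col-0 has the larger change exactly when the mean of both accessions rises between those stages. Where that difference rises, Col-0 has the larger change exactly when the mean falls. These counts and the rises and falls by class given below are therefore not separate results.

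**Figure D4:**
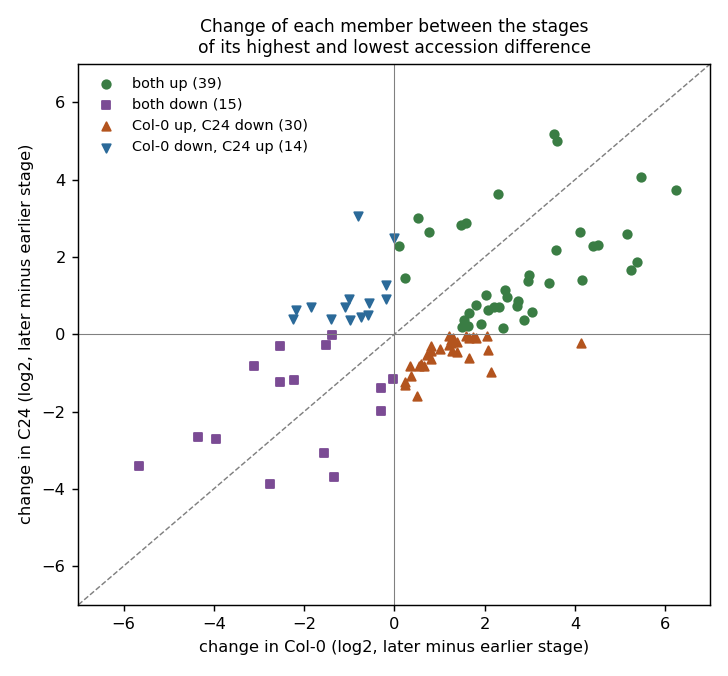
Each point is 1 of the 98 members, with its log2 change from the earlier to the later of the stages of its highest and lowest accession difference in Col-0 (horizontal axis) and in C24 (vertical axis). On the dashed line both changes would be equal; 39 members lie in the upper right, 15 in the lower left, 30 in the lower right and 14 in the upper left.

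Stage changes averaged over both accessions do not use the accession differences and could be tested. As a mean of both accessions, 61 of 98 members rose from 8-9 to 10-11 days and 26 fell (limma, adjusted p under 0.05), where 27.4% of all probe sets rose and 29.5% fell. Over the whole span 62 rose and 25 fell, where 35.7% of all probe sets rose and 34.0% fell. From 10-11 to 12-13 days 42 rose (42.9%) and 25 fell (25.5%), against 20.2% and 20.9% of all probe sets. Of the 657 other probe sets with a swing of 1 or more, 42.6% rose and 26.8% fell in this second step, much as the members did. In the first step 49.2% of the 657 rose and 34.4% fell, against 62.2% and 26.5% of the members. A member must change between stages in at least 1 accession, so the rule favours more calls than in all probe sets. The part of the rule in the balance of rises and falls was not tested. The median change of the members was 0.87 in the first step, 0.21 in the second and 0.84 over the span, and that of all probe sets 0.01, 0.02 and 0.03.

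The balance differed between the classes. Of the 68 members first higher in C24, 50 rose and 9 fell from 8-9 to 12-13 days, with a median change of 1.29. Of the 30 first lower in C24, 12 rose and 16 fell, with a median of -0.46. Among the 657 other probe sets with a swing of 1 or more, a set that likewise must change between stages, 363 rose and 241 fell, with a median of 0.50. The members first higher in C24 were thus mostly rising transcripts, and the others were split. The 657 were not split by the direction in which their accession difference moved, so they do not match either class alone. No test was made of the difference between these counts.

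Against the mean of the other stages, the level at 10-11 days was higher in 50 members and lower in 25, where 15.5% of all probe sets were higher and 17.1% lower. A transcript that rises or falls mainly in the first step can also pass this contrast, without a peak or trough at 10-11 days. As a mean of both accessions, 20 members (20.41%) were highest at 10-11 days and 16 lowest, where 15.41% and 17.85% of all probe sets were. In the class first higher in C24, 42 of 68 were higher and 11 lower, and in the class first lower in C24, 8 of 30 were higher and 14 lower. In the comparison set of 657, again not split by direction, 212 were higher and 208 lower. The difference between the classes was not tested here either. On this contrast ATL8 (1.02 ± 0.07), CYP78A9 (1.44 ± 0.09) and XTH16 (1.10 ± 0.14) were higher, with limma adjusted p = 4.49e-09, 8.15e-10 and 6.3e-06. ATL8 and XTH16 were highest at 10-11 days, but CYP78A9 went on rising, with means of both accessions of 4.77, 9.76 and 11.87. BAN (-0.99 ± 0.10), AT2G01610 (-1.09 ± 0.07) and AT3G52870 (-0.88 ± 0.07) were lower, with limma adjusted p = 3.4e-07, 2.55e-09 and 1e-08. AT2G01610 had its lowest mean at 10-11 days, but BAN and AT3G52870 had theirs at 12-13 days. BGLU19 went against its class with -0.93 ± 0.12 (adjusted p = 1.19e-05), since most of its rise came in the second step. Other named genes also went against their class, some by more. AT1G09310 (-1.43 ± 0.19) and AT1G47400 (-1.10 ± 0.24), first higher in C24, were lower, with limma adjusted p = 1.31e-05 and 0.00142. Their lowest means were at 12-13 days. AT2G05580 (1.59 ± 0.24) and AT4G15120 (1.34 ± 0.10), first lower in C24, were higher, with limma adjusted p = 3.64e-05 and 7.03e-09. Both had their highest mean at 12-13 days.

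**Figure D5:**
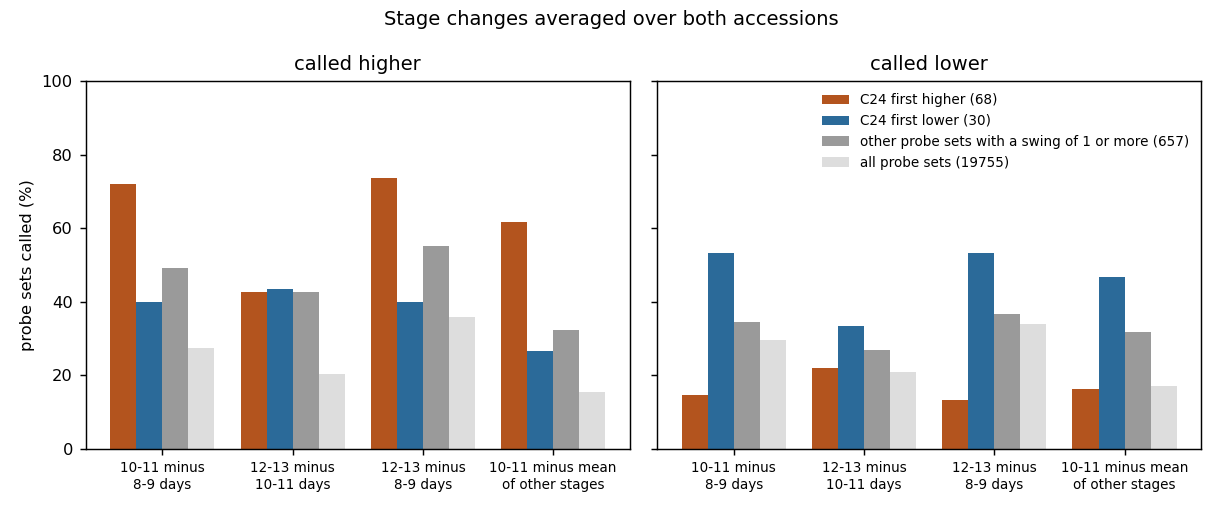
Share of probe sets (%) called higher (left) or lower (right) by limma at an adjusted p under 0.05 for 4 stage contrasts averaged over both accessions, for the 68 members first higher in C24, the 30 first lower, the 657 other probe sets with a swing of 1 or more, and all 19755 probe sets. The class first higher in C24 has the most higher calls for the first step, the span and the middle stage, and the class first lower in C24 the most lower calls.

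With 0.496% of all probe sets among the members, lists of this size would be expected to hold few or none, and nothing is read from a count of 0. None of the 5 measured storage protein genes, the 12 genes for late embryogenesis abundant (LEA) proteins that protect drying cells, the 7 oil genes, the 6 photosynthesis genes, the 4 cell cycle genes or the 4 heat shock genes was among them. By symbol, 2 of 27 expansin and xyloglucan endotransglucosylase genes and 1 of 25 cytochrome P450 genes were members, and none of 46 UDP-glycosyltransferase, 35 AGAMOUS-like or 27 serine carboxypeptidase-like genes. The annotation named only part of each list, and unnamed members cannot be placed in any.

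The mean level of the members had a median of 6.94, against 6.14 for all probe sets. In 6 members every group mean lay below the latter, among them AT3G46770. A group mean below 4.41 was seen in 11 of the 98 (and in 28.8% of all probe sets), and in none were all groups below it. Their spread between arrays of a group was wider, with a median pooled SD of 0.21 against 0.13 for all probe sets and 0.20 for the 657 others with a swing of 1 or more.

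The 43 named members lay on all chromosomes, with 10, 6, 11, 8 and 8 on chromosomes 1 to 5. None were next to each other in the order of protein-coding genes, and 1 pair lay within 5 genes, ATL8 and AT1G76450, 4 places apart. Both differences fell from 8-9 to 10-11 days, from 0.89 to -0.50 for ATL8 and from 0.26 to -0.73 for AT1G76450. At 12-13 days they parted, with -1.60 for ATL8 and 0.64 for AT1G76450. No named member had a second probe set on the array, so that no sign change could be checked with other probes.

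To see the sign change in arrays that had not chosen it, the rule was applied without 1 replicate number in all groups and the left-out arrays were then read. Without replicate 1, 108 probe sets met the rule, and in replicate 1 alone 94 of them had both signs as chosen. Without replicate 2 the numbers were 102 and 74, and without replicate 3 they were 156 and 120. Both differences were beyond 0.5 in the left-out arrays for 46, 36 and 35 of them. The median highest difference was 0.74, 0.79 and 0.73 in the choosing arrays and 0.59, 0.73 and 0.37 in the left-out ones. The median lowest difference was -0.66, -0.74 and -0.71 in the choosing arrays and -0.79, -0.60 and -0.58 in the left-out ones. No share over all probe sets was set beside these counts, so nothing is read from them. Of the probe sets so chosen 73, 67 and 80 are among the 98 members. The left-out arrays come from pools of the same plants, so they are not independent of the arrays that chose.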

How the data were processed

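Per the labels, seed RNA from pooled siliques was hybridised to 18 Affymetrix ATH1 arrays. Per the series' design text, the authors kept probes that are identical in both accessions' genomes and match TAIR10 gene models, in probe sets of 3 or more, and the submitters' processing notes name TAIR10 too. The deposited values are read as log2 levels per probe set from their range, and how they were background-corrected, normalized and summarised was not given in the sources used. They were used as deposited, without 11 control probe sets. Precision is limited by 3 arrays in a group.

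A group-means model was fitted to 19755 probe sets and 18 arrays with limma 3.58.1 in R 4.3.3 (lmFit and eBayes, 12 residual and 5.8 prior degrees of freedom), and tables and plots were made with Python 3.11.15. The 4 tested contrasts average a stage change over both accessions with equal weight, which in this balanced design is orthogonal to the accession differences of the rule. P-values were adjusted by Benjamini-Hochberg across all 19755, with a threshold of 0.05. Differences carry the SE of the model. The model was also run on simulated data with independent noise, no accession differences built in and a lower limit than the rule's. The real pools share plants, so nothing is read from that run. The members, gene lists and tests were chosen with earlier results of these data known, and the comparison set with a swing of 1 or more was added after the members' values had been seen.

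Named genes were, among members with a single gene, the 12 with the highest swing in each class (arrays apart at both stages, highest group mean above 4.57, the highest 25th percentile of an array), members of the fixed lists, up to 4 per symbol family, the 3 highest and 3 lowest in each tested contrast, and the 2 on each side of the limit. The swing part gave 23 genes, and the rule without its part at the limit gave 27. Gene names are from the platform annotation, which named 1 gene for 11763 probe sets, several for 61 and listed none for 7931, and loci are from a RefSeq table of TAIR10.1, which held 11718. Alternatives covered the limit, the normalization, dim probe sets, the prior variance, the replicate block, the stages fitted and each array left out.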

Additional observations from a re-analysis of the deposited data

Results flagged for a closer look

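Of the 43 members with a gene name, 12 moved opposite ways in the accessions, with every array of the later stage on one side of every array of the earlier stage in Col-0 and on the other side in C24. Of these, 7 are described in the text, 6 by the rule for named genes and AMY1 by its symbol. Such opposite moves were seen in 2.9% of all probe sets between their own stages of highest and lowest difference. The rule favours them, so nothing is read from the count. The difference between the accessions was not tested, since the rule chose the genes by it. From 8-9 to 12-13 days the change of ATL8 was 2.08 in Col-0 and -0.40 in C24, and that of AMY1 0.60 and -0.77. From 10-11 to 12-13 days the Col-0 mean of AT3G46770 moved by 1.39 against -0.20 for C24, and that of AT1G76450 by -0.99 against 0.38. From 8-9 to 10-11 days the changes were -2.18 and 0.62 for AT3G43960, -1.02 and 0.91 for AT4G16400, and -0.75 and 0.46 for AT5G40670. AT3G46770 lay at 4.23 to 5.93 on all arrays, near the dim end.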

How the results depend on the processing

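The number of members depends on the limit: 198 probe sets met a limit of 0.4, 53 a limit of 0.6, 24 a limit of 0.75 and 9 a limit of 1. It was 93 after a second quantile normalization, all among the 98, and 93 with centred arrays (91 of them among the 98), and 114 with group medians (86 of them). With single arrays or whole replicate numbers left out it ran from 92 to 156, the highest without replicate 3 in all groups, with 80 of the 98 among those 156. The counts of members called in the 4 tested contrasts stayed within 1.5 times in every alternative except 1. With a change of at least 1 added to the adjusted p, 15 members fell in the first step, and 15 rose and 4 fell in the second. Against the mean of the other stages, 19 were then higher at 10-11 days and 4 lower. Left-out arrays gave 61 to 62 rises and 24 to 27 falls in the first step. They gave 39 to 46 and 22 to 27 in the second, and 62 to 63 and 25 to 26 over the span. For 10-11 days against the mean of the other stages they gave 46 to 51 higher and 22 to 26 lower. Same-numbered arrays of different groups did not deviate together (correlation of deviations -0.212 to 0.209 over 45 pairs), so the numbers were not taken as a pairing. With the replicate block 61 members rose and 27 fell in the first step, and it changed no call on the named genes other than AT2G19310 from 10-11 to 12-13 days (0.19, adjusted p = 0.058). Of 89 calls on named genes 5 were lost in some alternative, none of them given as a call in the report. A fit of only the stages compared gives no other value for the middle stage contrast, which uses all stages. With each probe set's own variance, an alternative added after seeing the data, all counts also stayed within 1.5 times.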

Other observations

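The 55 members without an entry in the annotation include some of the widest swings. In the probe set with the highest swing among members first lower in C24, the C24 minus Col-0 differences were -1.52, 2.37 and 1.71 at the 3 stages. Another, first higher in C24, had 0.50, -1.46 and -3.07, and a further one 2.61, -0.43 and -0.90. In 1 of the 5 members with a second change of sign the differences were 1.47, -0.63 and 1.11. These were picked after their values had been seen.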
